A study of Homo sapiens with 9 samples.

Results

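The 40 genes described here act at the entry into mitosis, in the packing of chromosomes, on the spindle, at the kinetochore, in the spindle checkpoint and at the start of anaphase. They were chosen by name, and all 40 matched 1 Ensembl gene ID each among the 63241 genes of the deposited tables. RNA was sequenced from MEG-01, human megakaryoblastic leukaemia cells from a blast crisis of chronic myeloid leukaemia, in 9 libraries of 3 groups: control, As2S2 (arsenic disulfide) and PMA (phorbol ester, an activator of protein kinase C that pushes this line towards megakaryocytes). Each group held 3 libraries. The labels name no dose, time, vehicle or genotype, and do not say whether replicates were separate cultures, and the p-values therefore reflect only how far these libraries scattered, which may be technical. Control replicate 1 carries an organism label other than human, although all tables hold human gene IDs.

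In a dividing cell, cyclins A and B activate the kinase CDK1, condensin and topoisomerase II compact the chromosomes, and motor proteins build the spindle. Kinetochores, protein assemblies on centromeres, hold the chromosomes to spindle microtubules, and the checkpoint proteins block anaphase until every kinetochore is attached. CDC20 then turns on the anaphase promoting complex, which marks securin (PTTG1) and cyclin B for destruction and so frees separase (ESPL1). Most of these genes are transcribed late in the cell cycle, under FOXM1 and MuvB complexes. Megakaryocytes enter mitosis without completing it and so become polyploid.

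Libraries held between 18200501 and 20366870 counts, and 14592 genes passed the filter on low counts, with 39 of the 40 mitotic genes among them. Within groups, control replicate 2 and As2S2 replicate 1 were unlike their fellows: chi-square per gene was 12 to 15.2 in any pair with either of them and 2.42 to 3.46 in all remaining pairs. Of 39 mitotic genes control replicate 2 was the lowest control library in 22 (38.0% of all genes tested), and As2S2 replicate 1 was the highest As2S2 library in 25 (40.6%). On the third principal component (4.61% of the variance) the other controls lay at 17.0 and 10.1 and the other As2S2 libraries at -7.80 and -10.8, so that with both omitted the 2 groups cannot be told apart from that split. The megakaryocyte integrin chain ITGA2B stood at 719 CPM (counts relative to library size, scaled by TMM) in control, while PF4 and VWF had too few counts to be tested. The summed level of 10 megakaryocyte markers ran from 765 to 877 CPM in the controls, from 647 to 771 with As2S2 and from 787 to 830 with PMA. That of 10 erythroid markers ran from 3190 to 3710 CPM in control, from 4500 to 4910 with As2S2 and from 19000 to 20200 with PMA, nearly all of it fetal globin HBG2. For 7 monocyte markers the sums ran from 307 to 347, 341 to 392 and 746 to 760 CPM. CD68 alone went from 264 to 682 CPM with PMA. Of the 6 monocyte markers tested 3 rose and 1, ITGAM, fell with PMA, and 2 rose and 2 fell with As2S2. The sums of 5 granulocyte markers stayed at or below 0.465 CPM. The part of these markers in the results below was not tested.

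With As2S2 most mitotic genes rose modestly, and with PMA most fell, by up to 7.33-fold. Against control, 27 of the 39 rose with As2S2, where 20.3% of all genes tested rose, and 0 fell, where 19.6% of all genes fell (edgeR; also 0 at an unadjusted p under 0.05, 0 by DESeq2 and 0 by limma-voom). The median log2 fold change was 0.42 over the mitotic genes and 0.00 over all genes tested, and the range ran from -0.12 for NUF2 to 0.92 for CDC20. In 25 of the 39 every As2S2 library lay above every control library, as in 23.1% of all genes tested. With PMA 28 of the 39 fell, where 31.1% of all genes tested fell, and 5 rose, where 30.8% rose. In 31 of the 39 every PMA library lay below every control library (33.7% of all genes tested), and in 5 every one lay above (33.8%). The median was -1.02 against 0.00 over all genes, and the range ran from -2.87 for CENPE to 1.08 for CKS2. A fall of at least 1 on the log2 scale was seen in 20 of the 39 (9.18% of all genes tested). Both comparisons used the same 3 control libraries. RNA came from whole cultures, in which a change in the number of cells in mitosis and a change in RNA per mitotic cell cannot be told apart.

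**Figure D1:**
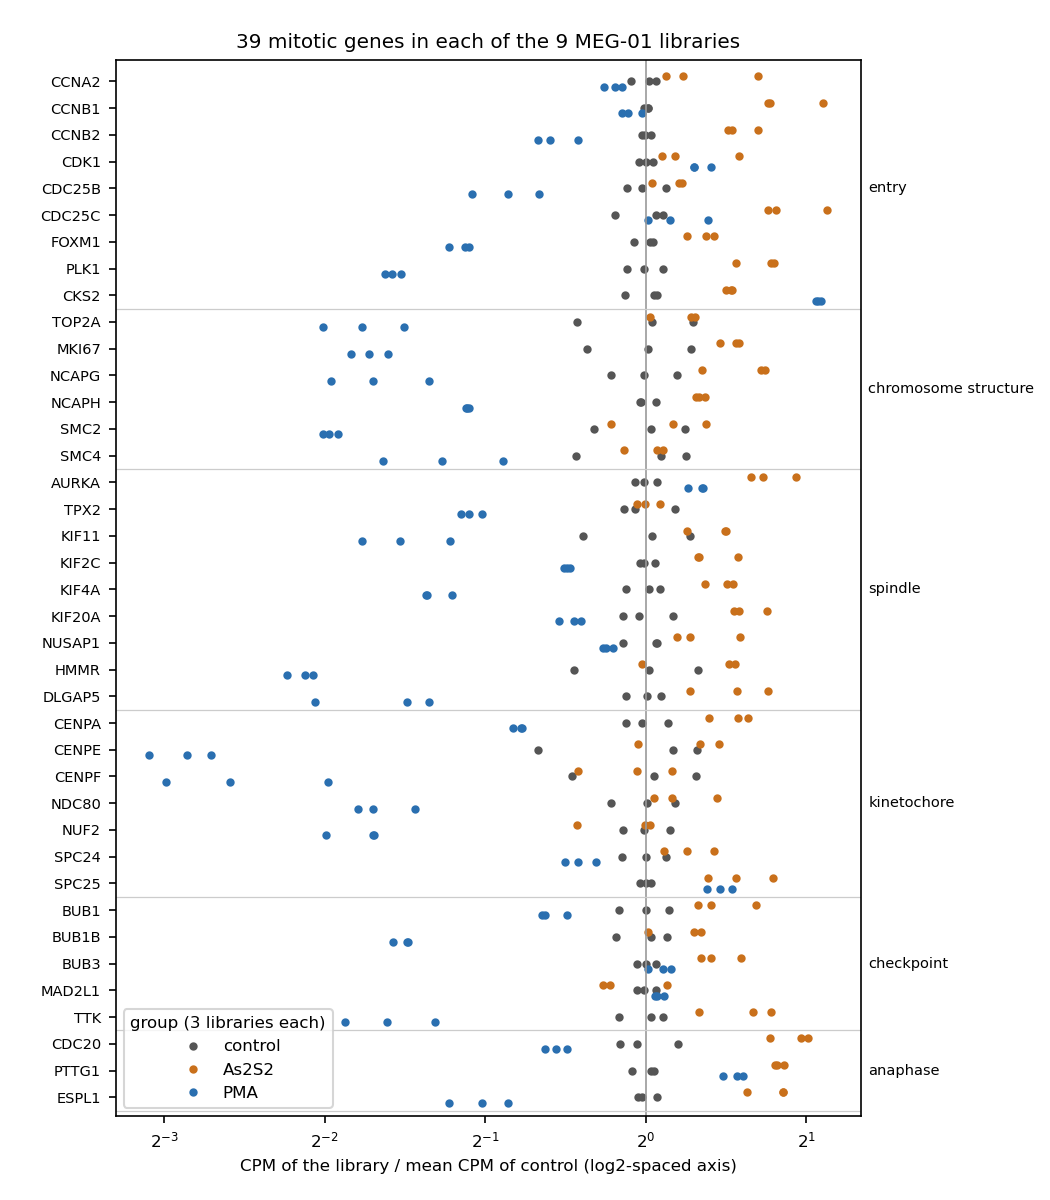
Level of 39 mitotic genes in each of the 9 libraries as CPM divided by the mean CPM of the 3 control libraries of that gene (log2-spaced axis), with genes ordered by mitotic step and 1 point per library. As2S2 points lie to the right of control for CCNB1, CDC20 and PTTG1, PMA points lie far to the left for CENPE, CENPF and HMMR, and CKS2 is the gene with PMA points farthest to the right.

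Promoter sequences show what many of these genes share apart from their names. The RefSeq table of promoters (GRCh38.p14, 250 bases before to 50 after each start) held 34 of the 40 genes with 44 starts. Letters of the CCAAT box (CCAAT or its complement ATTGG) stood in 30 of the 44 promoters, or 68.2%, against 34.6% of all 35116 promoters of that length. Letters of the cell cycle homology region (TTTGAA or TTCAAA), the element bound by MuvB complexes, stood in 26, or 59.1%, against 15.2%. Both stood in 45.5% of these promoters against 5.9% of all. The related TTCGAA stood in 6.82% against 1.45%, and the E2F letters GCGGGAA or TTCCCGC in 13.6% against 6.55%. The 120 bases before the start are printed for 5 genes that fell with PMA (PLK1, CCNB2, CDC20, KIF4A and ESPL1) and 3 that rose (CKS2, PTTG1 and SPC25), 5′ to 3′ on the strand of the gene, with the letters of both elements in capitals (PTTG1 is shown for the first of its 2 starts, and there a CCAAT and its complement overlap).
PLK1, chr16:23678769-23678888, + strand: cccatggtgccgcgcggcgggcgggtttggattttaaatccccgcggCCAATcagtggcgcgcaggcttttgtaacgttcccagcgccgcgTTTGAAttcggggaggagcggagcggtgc
CCNB2, chr15:59105026-59105145, + strand: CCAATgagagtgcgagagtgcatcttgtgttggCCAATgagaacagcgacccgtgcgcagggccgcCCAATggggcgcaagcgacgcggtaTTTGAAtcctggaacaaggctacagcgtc
CDC20, chr1:43358861-43358980, + strand: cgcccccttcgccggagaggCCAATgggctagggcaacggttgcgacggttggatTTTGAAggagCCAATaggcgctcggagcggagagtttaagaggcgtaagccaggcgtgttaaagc
KIF4A, chrX:70289984-70290103, + strand: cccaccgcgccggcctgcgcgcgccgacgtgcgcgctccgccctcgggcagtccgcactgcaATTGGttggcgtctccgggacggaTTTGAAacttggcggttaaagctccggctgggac
ESPL1, chr12:53268179-53268298, + strand: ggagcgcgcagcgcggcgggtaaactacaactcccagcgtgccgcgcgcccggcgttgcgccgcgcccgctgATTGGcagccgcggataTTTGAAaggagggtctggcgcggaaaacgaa
CKS2, chr9:89311075-89311194, + strand: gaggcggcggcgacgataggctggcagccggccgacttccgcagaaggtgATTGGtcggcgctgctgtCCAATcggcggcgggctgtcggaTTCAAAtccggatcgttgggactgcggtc
PTTG1, chr5:160421735-160421854, + strand: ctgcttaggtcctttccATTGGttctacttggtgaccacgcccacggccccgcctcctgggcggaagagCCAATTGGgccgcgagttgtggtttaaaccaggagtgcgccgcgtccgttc
SPC25, chr2:168890431-168890550, - strand: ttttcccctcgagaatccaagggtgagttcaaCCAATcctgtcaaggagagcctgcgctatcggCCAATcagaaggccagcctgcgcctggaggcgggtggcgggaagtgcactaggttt
In PLK1, CCNB2 and CKS2 the last letter of the homology region lies 24 bases before the start, and that of the nearest CCAAT box 69, 50 and 48 bases before it. PLK1 and CCNB2 fell with PMA and CKS2 rose. The windows of PTTG1 and SPC25 hold CCAAT letters without TTTGAA, although the whole 300-base promoter of SPC25 holds them outside the printed bases, and SPC25 counts among the genes with it. No rule fixed which genes were printed, and the printed ones do not stand for the rest. Among genes not printed, KIF20A and NCAPH fell with PMA without TTTGAA, and CDK1 rose with it. Of the genes with a promoter in the table, the 24 with TTTGAA had a median log2 fold change of -1.41 with PMA (18 fell and 3 rose) and the 10 without it -0.48 (7 fell and 1 rose). With As2S2 these medians were 0.45 and 0.39. For CCAAT the order was the other way with PMA: the 26 genes with it had a median of -0.57 (17 fell and 4 rose) and the 8 without it -1.65 (8 fell and 0 rose). With As2S2 the medians were 0.50 with CCAAT and 0.23 without. Of all genes tested 31.1% fell with PMA and 30.8% rose. Most genes fell with PMA both with and without either element, and whether the elements bear on the response was not tested. These are matches of letters, given as a description.

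At mitotic entry, 8 of 9 genes rose with As2S2, while with PMA 4 fell, 2 rose and 3 did not pass the test (medians 0.52 and -0.20). The rises with As2S2 are 88.9%, against 20.3% of all genes tested. With PMA 44.4% fell and 22.2% rose, against 31.1% and 30.8% of all genes tested. CCNB1, cyclin B1, stood at 123, 125 and 125 CPM in the controls, 267, 210 and 212 with As2S2 and 112, 122 and 115 with PMA. All As2S2 libraries lay far above the others, at 0.89 ± 0.09 on the log2 scale (fold change ± SE, edgeR's adjusted p = 9.78e-07), whereas PMA gave -0.09 ± 0.09 (adjusted p = 0.358). PLK1, the kinase that drives entry, stood at 129, 140 and 120 CPM in the controls, 192, 223 and 226 with As2S2 and 45.2, 43.4 and 42.2 with PMA. Its 3 groups did not overlap, and it moved by 0.72 ± 0.08 with As2S2 (adjusted p = 3.84e-06) and by -1.57 ± 0.08 with PMA (adjusted p = 1.50e-10). FOXM1, a transcription factor of late cell cycle genes, rose by 0.36 ± 0.09 with As2S2 and changed by -1.15 ± 0.09 with PMA. FOXM1, CCNA2, NCAPG and SMC4 held whole counts in 0 of the 9 libraries, NUSAP1 in 2 and SPC25 in 6. Counts that are not whole can come from reads shared between genes or transcripts, so the values of these genes are less certain.

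CDK1, the kinase itself, lay above control with both treatments in CPM. It stood at 63.4, 67.3 and 65.3 CPM in the controls, 97.8, 70.0 and 74.2 with As2S2 and 80.6, 86.5 and 80.4 with PMA, with As2S2 replicate 1 high within its group. The log2 fold change was 0.30 ± 0.10 with As2S2 (adjusted p = 0.0268) and 0.34 ± 0.10 with PMA (adjusted p = 0.00933), where the TPM ratio was -0.16 on the log2 scale. The As2S2 call was lost without control replicate 1 (0.29, adjusted p = 0.0752), control replicate 3 (0.31, 0.063) or As2S2 replicate 1 (0.15, 0.106). CKS2, the small subunit that docks CDK1 to its substrates, stood at 128, 145 and 147 CPM in the controls, 198, 202 and 203 with As2S2 and 292, 294 and 299 with PMA. The 3 groups of CKS2 were ordered with PMA on top, at 0.52 ± 0.07 with As2S2 and 1.08 ± 0.07 with PMA (adjusted p = 1.67e-05 and 9.92e-10). The phosphatase CDC25C, which activates CDK1, rose with As2S2 from 12.7 ± 1.41 to 23.9 ± 3.40 CPM (SD, n = 3 libraries each; 0.91 ± 0.13, adjusted p = 4.55e-05), and PMA gave 0.19 ± 0.13 (adjusted p = 0.233). Its relative CDC25B stood at 58.3, 64.6 and 54.5 CPM in the controls, 60.8, 69.2 and 68.3 with As2S2 and 37.4, 28.0 and 32.6 with PMA. As2S2 and control overlapped there (0.16 ± 0.10, adjusted p = 0.222), while PMA lay below (-0.86 ± 0.10, adjusted p = 2.71e-06). CDC25B passed with As2S2 once control replicate 2 and As2S2 replicate 1 were both omitted (0.29, adjusted p = 0.00527). Cyclin B2, CCNB2, rose by 0.58 ± 0.08 with As2S2 and changed by -0.56 ± 0.09 with PMA. Cyclin A2, CCNA2, rose by 0.37 ± 0.12 with As2S2 (adjusted p = 0.0164), a call lost without As2S2 replicate 1 (0.19, 0.0659). With PMA it gave -0.20 ± 0.12 (adjusted p = 0.150), and passed without As2S2 replicate 1 (-0.21, 0.0179) and in 3 other alternatives.

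Among the 6 genes of chromosome structure all fell with PMA, each by more than 1 on the log2 scale, and 3 rose with As2S2 (medians -1.69 and 0.27). Of all genes tested 31.1% fell with PMA, 9.18% by at least 1, and 20.3% rose with As2S2. TOP2A, the topoisomerase that untangles sister chromatids, stood at 94.1, 56.9 and 78.8 CPM in the controls, 94.6, 93.1 and 78.2 with As2S2 and 27.0, 19.0 and 22.5 with PMA. Every PMA library lay below every other library (-1.75 ± 0.16, adjusted p = 8.00e-08), and As2S2 overlapped control (0.21 ± 0.15, adjusted p = 0.275). The As2S2 value of TOP2A passed without control replicate 1 (0.39, adjusted p = 0.0491), and was -0.01 when control replicate 2 and As2S2 replicate 1 were both omitted. MKI67, the Ki-67 protein of the chromosome surface and a common marker of dividing cells, stood at 81.9, 52.2 and 68.1 CPM in the controls, 99.5, 101 and 92.9 with As2S2 and 22.1, 20.4 and 18.9 with PMA. Its 3 groups did not overlap, at 0.54 ± 0.12 (adjusted p = 0.00206) and -1.72 ± 0.13 (adjusted p = 9.33e-09). The condensin subunit NCAPH had narrow groups: 63.5, 59.6 and 59.2 CPM in the controls, 76.6, 75.7 and 78.5 with As2S2 and 28.1, 28.0 and 28.4 with PMA. It rose by 0.34 ± 0.07 with As2S2 (adjusted p = 0.00140) and changed by -1.11 ± 0.08 with PMA (adjusted p = 2.67e-09). Its partner NCAPG rose by 0.61 ± 0.14 and changed by -1.65 ± 0.17. Of the condensin ATPases with As2S2, SMC2 gave 0.12 ± 0.15 and SMC4 0.02 ± 0.16, neither past the test, and with PMA they changed by -1.97 ± 0.19 and -1.24 ± 0.18. SMC4 stood at 32.1, 20 and 28.8 CPM in the controls, 29.1, 28.3 and 24.6 with As2S2 and 14.6, 8.67 and 11.2 with PMA.

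Of 9 spindle genes 7 rose with As2S2, and with PMA 7 fell, 1 rose and 1 did not pass (medians 0.42 and -1.09). The rises with As2S2 are 77.8%, against 20.3% of all genes tested. With PMA 77.8% fell and 11.1% rose, against 31.1% and 30.8%. AURKA, the kinase of spindle poles, stood at 43.9, 45.6 and 48.4 CPM in the controls, 88.1, 72.6 and 76.2 with As2S2 and 55.3, 58.9 and 58.6 with PMA. Both treated groups lay above control in CPM, at 0.78 ± 0.08 (adjusted p = 3.10e-06) and 0.33 ± 0.09 (adjusted p = 0.00353), and in TPM the PMA ratio was -0.14. TPX2, the protein that activates AURKA on microtubules, stood at 248, 199 and 209 CPM in the controls, 233, 211 and 218 with As2S2 and 108, 102 and 98.5 with PMA. As2S2 and control overlapped for TPX2 (0.01 ± 0.08, adjusted p = 0.915), and PMA lay 2.13-fold below control (-1.09 ± 0.08, adjusted p = 1.19e-08). The sign of the As2S2 value of TPX2 turned under 6 alternatives. The kinesin KIF20A rose by 0.63 ± 0.10 with As2S2, from 41.2, 35.5 and 33.2 CPM to 61.8, 54.7 and 53.5, and with PMA stood at 27.7, 26.8 and 25.2 (-0.46 ± 0.10, adjusted p = 7.09e-04).

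The chromokinesin KIF4A stood at 21.1, 19.1 and 22.1 CPM in the controls, 29.6, 30.3 and 26.9 with As2S2 and 9.01, 8.09 and 8.07 with PMA (0.48 ± 0.10 and -1.31 ± 0.11). NUSAP1, which bundles microtubules, stood at 39.6, 34.2 and 39.4 CPM in the controls, 56.7, 43.1 and 45.6 with As2S2 and 31.7, 31.4 and 32.7 with PMA. All PMA libraries lay below control for NUSAP1, but the change of -0.24 ± 0.11 did not pass (adjusted p = 0.0573). It passed in 8 alternatives, among them the omission of control replicate 2 (-0.32, adjusted p = 0.014), of As2S2 replicate 1 (-0.25, 0.0143) or of As2S2 replicate 2 (-0.25, 0.0491). The As2S2 rise of NUSAP1 (0.36 ± 0.10, adjusted p = 0.0116) was lost when control replicate 2 and As2S2 replicate 1 were both omitted (0.17, 0.0572). The spindle motor KIF11 changed by -1.50 ± 0.17 with PMA and KIF2C, a kinesin that takes microtubules apart, by -0.50 ± 0.08, while with As2S2 they rose by 0.42 ± 0.15 and 0.41 ± 0.08. The As2S2 call of KIF11 (adjusted p = 0.0352) was lost in 7 alternatives, among them the omission of control replicate 2 (0.26, 0.098), control replicate 3 (0.44, 0.0682), As2S2 replicate 1 (0.38, 0.0876) or As2S2 replicate 2 (0.39, 0.104). HMMR, a spindle assembly factor, went from 13.4 ± 3.48 CPM in control to 3.04 ± 0.168 with PMA (-2.14 ± 0.22), with 17.4 ± 3.63 under As2S2 (SD, n = 3 libraries each; 0.37 ± 0.17, adjusted p = 0.101). The As2S2 value of HMMR passed when control replicate 1 was omitted (0.57, adjusted p = 0.0231), when As2S2 replicate 3 was (0.53, 0.024) and with no filter (0.36, 0.0351). DLGAP5, which stabilises kinetochore fibres, rose by 0.55 ± 0.15 with As2S2 and changed by -1.60 ± 0.17 with PMA.

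**Figure D2:**
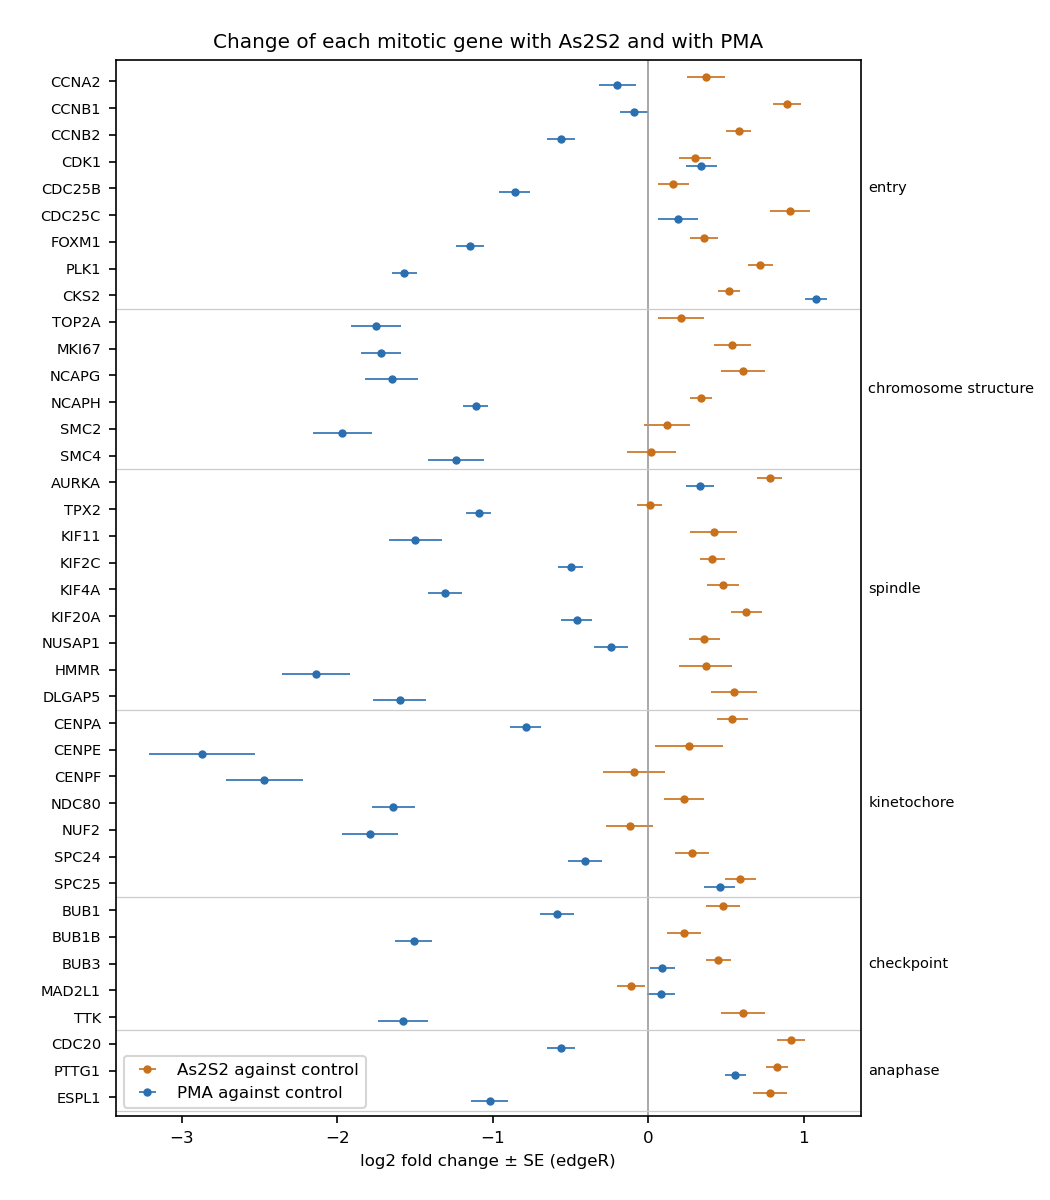
Log2 fold change of 39 mitotic genes with As2S2 and with PMA, each against the same 3 control libraries, with bars of 1 SE of the edgeR fit and genes ordered by step. With As2S2 they lie between -0.12 and 0.92, and with PMA between -2.87 for CENPE and 1.08 for CKS2, where CDK1, AURKA and SPC25 lie above 0 although their mean TPM ratios to control were -0.16, -0.14 and -0.01 on the log2 scale.

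At the kinetochore 6 of 7 genes fell and 1 rose with PMA, and 3 of 7 rose with As2S2 (medians -1.64 and 0.26). With PMA these are 85.7% and 14.3%, against 31.1% and 30.8% of all genes tested. With As2S2 42.9% rose, against 20.3%. CENPE and CENPF had the lowest log2 fold changes with PMA of all 39 genes. CENPE, the kinesin that moves chromosomes to the spindle equator, went from 5.54, 3.10 and 6.14 CPM in control to 0.679, 0.578 and 0.753 with PMA, or from 318 summed counts to 35, and stood at 6.78, 6.24 and 4.76 with As2S2. PMA lay far below (-2.87 ± 0.34, adjusted p = 4.65e-07), and As2S2 overlapped control. CENPF, a large kinetochore protein, stood at 20.5, 12.0 and 17.1 CPM in the controls, 15.9, 18.5 and 12.3 with As2S2 and 4.19, 2.08 and 2.74 with PMA (-0.09 ± 0.20, adjusted p = 0.761, and -2.47 ± 0.25, adjusted p = 1.78e-07). The histone variant that marks centromeres, CENPA, rose from 27.1, 32.5 and 29.0 CPM to 38.7, 43.9 and 45.8 with As2S2 (0.54 ± 0.10, adjusted p = 3.63e-04) and stood at 17.2, 17.3 and 16.6 with PMA (-0.79 ± 0.10).

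The 4 subunits of the NDC80 complex, which grips microtubules as an obligate assembly, ranged from -1.79 to 0.46 with PMA on the log2 scale. NDC80 went from 25.4, 19.3 and 22.5 CPM to 8.27, 6.47 and 6.89 (-1.64 ± 0.14, adjusted p = 5.00e-08). NUF2 went from 10.2, 8.33 and 9.12 CPM to 2.84, 2.83 and 2.31 (-1.79 ± 0.18, adjusted p = 1.52e-07). SPC24 went from 20.6, 24.9 and 22.8 CPM to 18.4, 17.0 and 16.1 (-0.41 ± 0.11, adjusted p = 0.00420), and SPC25 from 23.2, 24.3 and 23.8 to 32.8, 34.6 and 31.0 (0.46 ± 0.10, adjusted p = 9.68e-04; in TPM -0.01). The difference between subunits was not tested. With As2S2 the values were 0.23 ± 0.13 for NDC80 and -0.12 ± 0.15 for NUF2, neither past the test, 0.28 ± 0.11 for SPC24 and 0.59 ± 0.10 for SPC25 (41.2, 35.2 and 31.2 CPM, adjusted p = 2.59e-04). The As2S2 call of SPC24 (24.7, 30.6 and 27.3 CPM, adjusted p = 0.0497) was lost in 12 alternatives at the same threshold, among them DESeq2 (0.0575) and the omission of control replicate 1 (0.167), control replicate 3 (0.102), As2S2 replicate 2 (0.206), As2S2 replicate 3 (0.0979) or any PMA replicate (0.0584 to 0.0626).

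In the spindle checkpoint, 3 of 5 genes fell with PMA and the other 2 did not pass, while 3 rose with As2S2 (medians -0.59 and 0.45). Each of these shares is 60%, against 31.1% of all genes tested that fell with PMA and 20.3% that rose with As2S2. BUB1, a checkpoint kinase, stood at 43.9, 35.4 and 39.7 CPM in the controls, 63.9, 52.6 and 49.8 with As2S2 and 28.2, 25.4 and 25.7 with PMA, with no overlap between groups (0.48 ± 0.11, adjusted p = 0.00182, and -0.59 ± 0.11, adjusted p = 2.00e-04). BUB1B (BUBR1), part of the complex that inhibits CDC20, stood at 28.6, 23.0 and 26.7 CPM in the controls, 33.1, 32.1 and 26.4 with As2S2 and 9.31, 9.36 and 8.77 with PMA. It fell with PMA (-1.51 ± 0.12, adjusted p = 1.62e-08), and its As2S2 value of 0.23 ± 0.11 (adjusted p = 0.111) passed only without As2S2 replicate 3 (0.32, 0.0403). TTK (MPS1), the kinase that starts the checkpoint signal, rose from 14.9, 12.3 and 14.1 CPM to 21.9, 23.7 and 17.4 with As2S2 (0.61 ± 0.14, adjusted p = 0.00234) and stood at 5.55, 3.76 and 4.52 with PMA (-1.58 ± 0.16, adjusted p = 2.98e-07).

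BUB3 and MAD2L1 were the 2 that did not pass with PMA. BUB3, which recruits BUB1 and BUBR1 to kinetochores, stood at 114, 110 and 119 CPM in the controls, 172, 145 and 151 with As2S2 and 115, 127 and 123 with PMA. It rose by 0.45 ± 0.08 with As2S2 (adjusted p = 2.52e-04), and PMA gave 0.09 ± 0.08 (adjusted p = 0.335). MAD2L1 (MAD2), which binds CDC20 directly, stood at 78.6, 81.1 and 85.5 CPM in the controls, 89.4, 67.8 and 70.0 with As2S2 and 85.1, 88.6 and 85.6 with PMA, so that the groups overlapped. Its values were -0.11 ± 0.09 with As2S2 (adjusted p = 0.374) and 0.08 ± 0.09 with PMA (adjusted p = 0.476). Without As2S2 replicate 1, the highest As2S2 library, MAD2L1 fell with As2S2 (-0.24, adjusted p = 0.00987).

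At anaphase, all 3 tested genes rose with As2S2 by at least 0.78 on the log2 scale, and with PMA 2 fell and 1 rose (medians 0.83 and -0.56). Of all genes tested 20.3% rose with As2S2. With PMA 31.1% of them fell and 30.8% rose, against 66.7% and 33.3% of these 3 genes. CDC20, the activator of the anaphase promoting complex, stood at 102, 122 and 94.8 CPM in the controls, 181, 207 and 214 with As2S2 and 75.3, 72.0 and 68.5 with PMA. Its 3 groups did not overlap (0.92 ± 0.09, adjusted p = 1.32e-06, and -0.56 ± 0.09, adjusted p = 6.55e-05). PTTG1, securin, stood at 177, 195 and 192 CPM in the controls, 328, 332 and 342 with As2S2 and 279, 286 and 263 with PMA, above control in both (0.83 ± 0.07, adjusted p = 1.19e-07, and 0.56 ± 0.07, adjusted p = 1.94e-06). ESPL1, the protease that securin holds in check, stood at 17.4, 18.9 and 17.7 CPM in the controls, 27.9, 32.5 and 32.5 with As2S2 and 7.71, 9.94 and 8.88 with PMA (0.78 ± 0.11, adjusted p = 2.73e-05, and -1.02 ± 0.12, adjusted p = 1.20e-06). With PMA securin thus rose and separase fell, although in TPM the PTTG1 ratio was only 0.07. UBE2C, the ubiquitin-conjugating enzyme of the complex, had 39 counts over all 9 libraries, with 1, 2 and 3 in control, 5, 9 and 2 with As2S2 and 11, 3 and 3 with PMA, too few to be tested. UBE2C was listed at 0.0944 ± 0.0443 CPM in control (SD, n = 3 libraries), in libraries where CDC20 stood at 106 ± 14. Whether this level reflects the RNA or how reads were counted was not tested, so it is not read as the expression of UBE2C.

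Set directly against each other, As2S2 libraries held more mitotic RNA than PMA libraries: 35 of 39 genes were higher with As2S2, where 30.9% of all genes tested were, and 1 was lower, where 30.6% were. The median log2 fold change was 1.33 against 0.00 over all genes, and in 26 of the 39 the difference was at least 1 (9.54% of all genes tested). PLK1 stood 4.90-fold higher (2.29 ± 0.08, adjusted p = 1.71e-12), MKI67 4.78-fold, NCAPG 4.80-fold and CENPE 8.76-fold. CKS2 was the gene lower with As2S2 (-0.55 ± 0.07, adjusted p = 2.52e-06), and CDK1 (-0.03 ± 0.10), SPC25 (0.13 ± 0.10) and MAD2L1 (-0.19 ± 0.09) did not pass. CKS2 lost its call with the length trend removed (-0.10, adjusted p = 0.163). Without As2S2 replicate 1, CDK1 (-0.18, adjusted p = 0.0318) and MAD2L1 (-0.32, 9.47e-04) also were lower with As2S2.

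Levels per length differed widely between genes. In deposited TPM (transcript abundance, corrected for length) PTTG1 stood at 338 ± 17.1 and CKS2 at 326 ± 22.7 in control (SD, n = 3 libraries), far above CCNB1 at 70.9 ± 4.29, PLK1 at 65.2 ± 1.19 and CDC20 at 61.7 ± 5.0. PLK1 and CDC20 lay within their spread of each other. SMC2 (1.99 ± 0.490) and CENPE (0.55 ± 0.275) were the lowest tested genes. PTTG1, CKS2 and CCNB1 together held 52.4 ± 1.63% of the summed TPM of the 40 genes in control, 56.2 ± 0.965% with As2S2 and 72.2 ± 0.33% with PMA. By step, the summed TPM of entry genes was 588 ± 28.9 in control, 801 ± 24.7 with As2S2 and 632 ± 24.7 with PMA, and that of anaphase genes 404 ± 13.1, 665 ± 15.8 and 388 ± 8.81, both dominated by CKS2 and PTTG1. The sums of the other steps were all lower with PMA: 64.0 ± 11.1 against 20.8 ± 1.54 for chromosome structure, 159 ± 18.7 against 77.9 ± 3.83 for the spindle, 71.7 ± 3.62 against 38.5 ± 1.05 for the kinetochore and 115 ± 9.84 against 82.1 ± 3.73 for the checkpoint.

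**Figure D3:**
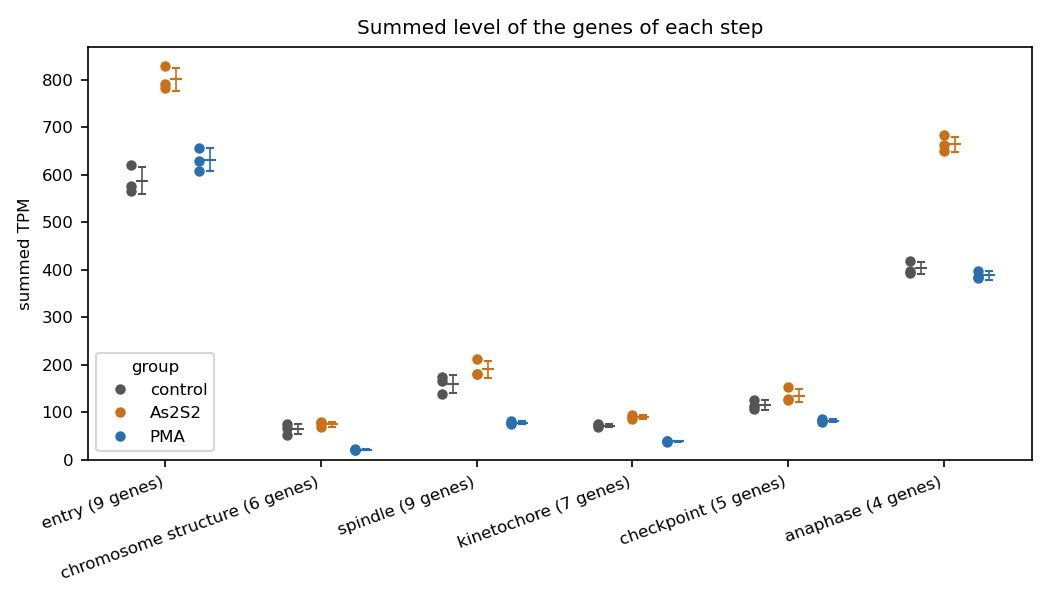
Summed TPM of the genes of each mitotic step, with 1 point per library and bars of mean ± SD over 3 libraries. The As2S2 libraries are highest for entry and anaphase genes, and the PMA libraries are lowest for chromosome structure, spindle, kinetochore and checkpoint genes.

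Whether the 5 rises with PMA appear depends on the scale. In TPM the median of all genes tested shifted by -0.44 on the log2 scale with PMA, and CKS2 moved by 0.60, PTTG1 by 0.07, SPC25 by -0.01, AURKA by -0.14 and CDK1 by -0.16. All 5 thus lay above that median. In TPM itself the PMA libraries of CDK1 (28.27, 30.81 and 30.47) lay below the controls (32.95 to 34.01), while those of SPC25 (17.18, 18.89 and 17.53 against 17.36 to 18.71) overlapped them and those of AURKA did too (18.78, 21.28 and 22.41 against 21.37 to 25.33). Genes that did not pass with PMA also lay lower in TPM: CCNA2 and NUSAP1 by -0.68 each and CCNB1 by -0.63. BUB3 and MAD2L1 moved by -0.34 each and CDC25C by -0.31, less than the median of all genes. Every PMA library lay below every control library in TPM for each of these except CDC25C. The median TPM shift of the 39 genes was -1.46 with PMA, and with As2S2 it was 0.35 against -0.11 over all genes. Removal of the trend of counts with effective length left 2 of the 5 rises, CKS2 and AURKA, and 30 falls. CDK1 (0.22, adjusted p = 0.064), SPC25 (0.22, 0.0728) and PTTG1 (0.11, 0.111) no longer passed, and CCNB1 fell (-0.23, 0.0257).

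Longer transcripts tended to have lower values with PMA. Effective length, implied by the deposited counts and TPM and given relative to the median gene, ran from 0.166 for CKS2 and 0.214 for PTTG1 to 3.64 for MKI67 and 4.01 for CENPE. Across the 39 genes Spearman's rho between length and log2 fold change was -0.66 with PMA and -0.32 with As2S2, against -0.28 and -0.01 across all genes tested. These genes share the same libraries, and rho is a description. After removal of the length trend rho with PMA was -0.55 over the mitotic genes and -0.02 over all genes. Some genes of like length had unlike values with PMA: NUF2 (0.77) changed by -1.79 ± 0.18 and PLK1 (0.755) by -1.57 ± 0.08, whereas CDK1 (0.759) rose by 0.34 ± 0.10 and AURKA (0.771) by 0.33 ± 0.09. These genes are examples only, and the part of length in the PMA values was not tested.

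**Figure D4:**
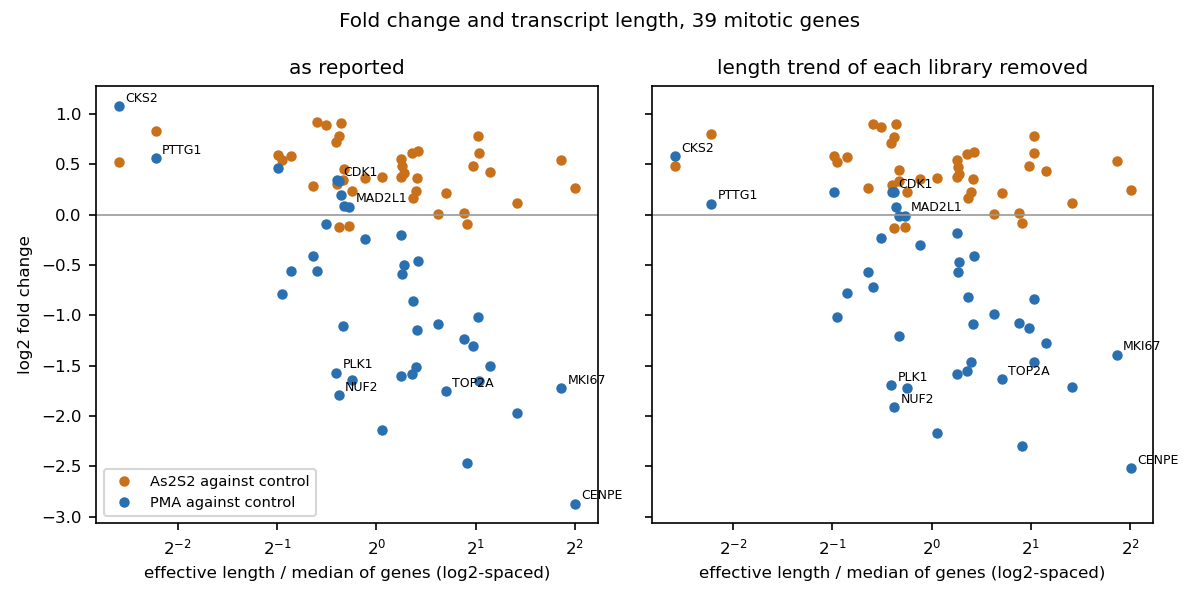
Log2 fold change against effective length relative to the median gene (log2-spaced axis) for 39 mitotic genes with As2S2 and with PMA, as reported and after removal of each library's length trend. PMA values run from CKS2 at the short end to CENPE at the long end in both panels, and PLK1, NUF2 and CDK1 lie apart at nearly the same length.

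Other genes of the same machinery, 107 in all and all tested, were counted in the same way: with As2S2 36 rose (33.6%, against 20.3% of all genes tested) and 10 fell (9.35% against 19.6%), and with PMA 13 rose (12.1% against 30.8%) and 67 fell (62.6% against 31.1%). The falls with As2S2 were 5 without As2S2 replicate 2, 6 without As2S2 replicate 3, 15 without control replicate 2 and 24 with control replicate 2 and As2S2 replicate 1 both omitted, and the rises with PMA were 6 with the length trend removed. Their median log2 fold changes were 0.13 and -0.55. Of 20 spindle partners 13 rose with As2S2 and 18 fell with PMA. TACC3, which stabilises kinetochore fibres, rose by 0.84 ± 0.08 and GTSE1 by 0.67 ± 0.09 with As2S2, and changed by -0.45 ± 0.08 and -1.06 ± 0.10 with PMA. The spindle motor KIF15 changed by -2.31 ± 0.22 with PMA. Of 25 kinetochore partners 11 rose and 1 fell with As2S2, and 2 rose and 13 fell with PMA. HJURP, the chaperone that places CENPA on centromeres, rose with As2S2 from 56.0 ± 1.25 to 129 ± 9.10 CPM (SD, n = 3 libraries each; 1.21 ± 0.07, adjusted p = 7.40e-09), the highest value of the 107, and changed by -0.29 ± 0.08 with PMA. CENPW rose in both (0.95 ± 0.08 and 0.54 ± 0.08), the latter not past the test with the length trend removed (0.10, adjusted p = 0.325). SKA1, which couples kinetochores to microtubules, changed by -1.06 ± 0.07 with PMA. Its As2S2 rise of 0.18 ± 0.07 (adjusted p = 0.0476) was lost when any 1 library other than control replicate 2 was omitted (0.0501 to 0.133).

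Condensin and cohesin partners fell with PMA in 15 of 15 cases, and 5 rose with As2S2. Of all genes tested 31.1% fell with PMA, and 20.3% rose with As2S2, against 33.3% of this list. The condensin subunit NCAPD2 changed by -1.24 ± 0.08 with PMA, and the cohesin subunits RAD21 and SMC1A by -1.21 ± 0.09 and -1.03 ± 0.09. Of 7 checkpoint partners 5 fell and 1 rose with PMA, while with As2S2 0 passed in either direction (edgeR; also 0 at an unadjusted p under 0.05, 0 by DESeq2 and 0 by limma-voom). With PMA these are 71.4% and 14.3%, against 31.1% and 30.8% of all genes tested. With As2S2 20.3% of all genes tested rose and 19.6% fell. SPDL1 changed by -1.70 ± 0.17 with PMA, KNTC1 by -1.71 ± 0.23 and TRIP13, which recycles MAD2, by -0.78 ± 0.09. Among 11 entry inhibitors and switches 3 rose and 1 fell with As2S2, and 3 rose and 5 fell with PMA. The 3 rises in each comparison are 27.3% of that list, against 20.3% and 30.8% of all genes tested. The falls are 9.09% with As2S2 and 45.5% with PMA, against 19.6% and 31.1% of all genes tested. The cyclin CCNF rose by 0.48 ± 0.09 and changed by -0.91 ± 0.09 with As2S2 and PMA, the phosphatase CDC25A rose by 0.25 ± 0.08 (not past the test without control replicate 3, 0.0524, or As2S2 replicate 3, 0.0798) and changed by -0.66 ± 0.08, and BORA, the activator of AURKA, changed by -0.85 ± 0.15 with PMA.

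Of 17 subunits and inhibitors of the anaphase promoting complex 2 rose and 4 fell with As2S2, and 5 rose and 4 fell with PMA, with medians of -0.02 and 0.05. These shares (11.8% and 23.5%, 29.4% and 23.5%) lie near or below those of all genes tested, apart from 23.5% against 19.6% that fell with As2S2. The scaffold subunit gene ANAPC1 fell in both (-0.80 ± 0.10 and -0.89 ± 0.10), whereas the small subunits CDC26 and ANAPC10 rose with PMA by 1.29 ± 0.10 and 0.79 ± 0.13. Of 12 regulators of late cell cycle transcription 2 rose and 4 fell with As2S2, and 7 fell with PMA (16.7% and 33.3%, against 20.3% and 19.6%, and 58.3% against 31.1% of all genes tested). TFDP1, the partner of E2F factors, fell in both (97.6 ± 1.06 CPM in the controls, 62.7 ± 0.575 with As2S2 and 61.1 ± 1.0 with PMA, SD, n = 3 libraries each), as did E2F5 (-0.69 ± 0.15 and -0.96 ± 0.16). The MuvB subunit LIN54 changed by -0.95 ± 0.17 with PMA.

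The authors' deposited table gave 25 of the 40 genes as higher with As2S2, and 5 as higher and 30 as lower with PMA, at their adjusted p under 0.05. All 25 were among the 27 called here, which also held CDK1 and SPC24 (0.053 and 0.132 in the authors' deposited table). The 30 included the 28 called here, with CCNA2 and NUSAP1 besides (0.024 and 0.0258 in the authors' deposited table).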

How the data were processed

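RNA was measured by poly(A)-selected sequencing (per the labels) in 9 MEG-01 libraries. Per the submitters' processing notes fastp 0.22.0 and DESeq2 were used, and the builds named there are zebrafish builds, while the gene IDs are human. No source used here gives the aligner, counting tool, strand setting or annotation, so the coordinates printed are only those of RefSeq promoters, not of the gene models counted. The authors deposited, per the file headers, estimated counts (not normalized), TPM values, and log2 fold changes and adjusted p-values of each treatment against control.

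Counts were rounded, filtered by filterByExpr of edgeR 4.0.16 (14592 of 63241 genes kept) and scaled by TMM. All 9 libraries entered 1 quasi-likelihood fit (R 4.3.3) with Benjamini-Hochberg adjustment over all genes tested and a threshold of 0.05. Fold changes carry SEs, and CPM and TPM carry SDs. The fit was tested on simulated data. Members, lists and the rule for named genes were chosen with earlier results of these data known. Values in every library are given for CDK1, CCNB1, PLK1, CDC20, TOP2A and MKI67 and, per step and comparison with control, for the 2 genes with the smallest and the 1 with the largest adjusted p, and from each other list up to 3 genes were named by smallest adjusted p. CENPE, UBE2C and further genes were chosen after their values were seen. Effective length is the ratio of counts to TPM. Alternatives were RLE or upper-quartile scaling, DESeq2 1.42.0, voom in limma 3.58.1, no filter or a stricter one, a fit of 2 groups alone, a block for replicate number, removal of the length trend (loess, span 0.5), a threshold of 0.01, and libraries left out. Promoters are RefSeq's (GRCh38.p14).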

Additional observations from a re-analysis of the deposited data

How the results depend on the processing

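The count of mitotic genes that rose with As2S2 was 27, ran from 24 to 28 with each library left out in turn, and was lowest, at 22, with a threshold of 0.01. The count that fell was 0, ran from 0 to 1 with each library left out, and was 1 (MAD2L1) with control replicate 2 and As2S2 replicate 1 both omitted. With PMA the falls were 28, and 28 to 30 in every alternative run, and the rises were 5 in all but the removal of the length trend, which left 2. Those lower with As2S2 than with PMA were 1, ran from 1 to 3 with each library left out, and were 2 with upper-quartile scaling, 0 with the length trend removed and 3 with both libraries omitted. The median log2 fold change of all mitotic genes tested, As2S2 against PMA, was 1.33. It ran from 1.31 to 1.45 with each library left out and was 1.44 with the length trend removed.

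Among the 39 mitotic genes and the others named, no value that passed the test turned its sign in the alternatives run. With As2S2, TOP2A was -0.01 with both libraries omitted, and from 0.04 to 0.39 with each library left out. SMC4 was -0.01 with upper-quartile scaling and in a fit of 2 groups, -0.20 with both omitted, and from -0.16 to 0.17 with each left out. TPX2 was -0.02, -0.01 and -0.09 in those settings, and from -0.05 to 0.12. CENPF ran from -0.27 to 0.10 with each left out and was -0.28 with both omitted, and NUF2 ran from -0.20 to 0.01 and was -0.26. SMC2 ran from -0.02 to 0.27 and was -0.15, and CENPE ran from 0.02 to 0.45 and was -0.08. Of other genes, LIN54 ran from -0.02 to 0.25 and was -0.09, KNTC1 ran from -0.18 to 0.15 and was -0.21, and CDC26 ran from -0.09 to 0.02. With PMA and the length trend removed BUB3 and MAD2L1 were -0.01 each. For As2S2 against PMA, CDK1 was 0.07 with the length trend removed, and from -0.18 to 0.07 with each left out, and -0.19 with both omitted. TFDP1 was -0.02 with upper-quartile scaling and ANAPC1 -0.06 with the length trend removed. The cause was not tested.

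Deviations of same-numbered libraries correlated between -0.07 and 0.15, and those of differently numbered libraries between -0.21 and 0.15. With 3 libraries per group these values cannot settle whether the replicate numbers mark pairs. With the replicate number as a block 27 rose with As2S2, 29 fell (NUSAP1 added) and 5 rose with PMA, and 35 were higher and 1 lower with As2S2 than with PMA. Depth limits CENPE, with 35 counts over the PMA libraries.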
